A study of Mus musculus with 12 samples.

Results

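The difference in the response to lipopolysaccharide (LPS) between a MOK knockout line and wild-type microglial cells was examined gene by gene. The cells were SIM-A9, an established mouse microglial line of C57BL/6 origin, either wild-type (WT) or H14, a line labelled MOK-KO (KO below); MOK is a serine/threonine kinase. Both were kept for 5 h in medium or in medium with LPS at 1 µg/mL, in the same serum-containing medium, with 3 libraries in each of the 4 groups and 12 in all. The labels call the libraries biological replicates without saying how the cultures were separated, so the p-values reflect only how far these libraries differ, which may be technical. One KO line was sequenced, and loss of MOK cannot be told apart from other differences between the lines. The interaction is the LPS effect in KO (LPS minus medium) minus the LPS effect in WT, on the log2 scale. All genes were considered: of 55416 gene identifiers, 26420 had enough counts to be tested, and 423 had an interaction called at an adjusted p under 0.05. A negative interaction means a lower LPS effect in KO, and a positive one a higher LPS effect in KO.

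LPS is a component of the bacterial outer membrane that is sensed by Toll-like receptor 4 (TLR4). The receptor signals through the adaptor MyD88 to NF-kB, which drives genes for cytokines such as TNF, and through the adaptor TRIF to the factor IRF3, which drives interferon beta. Secreted interferon beta then acts on its own receptor, and JAK kinases and STAT factors switch on a second set of interferon-stimulated genes. A response measured after several hours therefore holds direct targets of TLR4 signalling and genes induced by what the cells have secreted.

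Library totals lay between 39726866 and 72922794 counts. WT medium replicate 2 stood apart, with 13.05% of its counts in processed pseudogenes against 8.89% and 6.58% in the other two WT medium libraries. The KO medium libraries held 12.8% to 14.3% there, and the LPS libraries of both lines 6.28% to 7.35%. In KO LPS replicate 2, identifiers that matched no symbol took 10.4% of counts, compared with 4.88% to 8.18% elsewhere, and its mean level over the antiviral interferon-stimulated genes was 4.12 on the log2 CPM scale, against 4.99 and 4.80 in the other KO LPS libraries. Mok itself, which checks the label of the line, was measured at 3.33, 3.52 and 3.21 CPM in WT in medium, 2.83, 2.17 and 2.5 CPM in WT under LPS, 2.24, 2.58 and 1.93 CPM in KO in medium and 1.7, 1.54 and 1.319 CPM in KO under LPS. Its KO minus WT difference was -0.58 ± 0.19 (adjusted p = 0.0501) in medium and -0.72 ± 0.19 (adjusted p = 0.0177) under LPS, and its transcript was counted in every KO library; the position of the change in the gene is not given in the sources used here. Of 16 microglia and macrophage markers 14 had a mean over 1 CPM, and their summed level lay between 1169 and 1785 CPM in every library. Single markers differed between the lines within that sum. Itgam had 1183, 875 and 1215 counts in WT medium and 199, 147 and 192 in KO medium. With LPS it had 1598, 887 and 1445 in WT and 143, 135 and 138 in KO. C1qb had 720, 228 and 253 counts in WT medium and 39, 24 and 14 in KO medium. Tmem119 went the other way in medium, with 224, 167 and 208 counts in WT and 345, 299 and 227 in KO. The summed level of 10 B cell markers was 161 to 220 CPM in KO medium and 103 to 122 CPM in KO LPS, against 14.1 to 23.9 CPM in WT medium and 8.52 to 11.9 CPM in WT LPS, and most of it was Ighm. Summed markers of endothelium, led by Flt1 in every WT library and by Kdr in every KO library, lay between 206 and 231 CPM in all KO libraries and between 377 and 437 CPM in all WT libraries. None of these markers was at 0 in all libraries, and their part in the results was not tested. CPM here are counts scaled to the library total (per M counts, after TMM scaling). The marker levels of this paragraph are the exception, being per M counts of the library total without TMM scaling.

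The 423 genes with a called interaction were 1.60% of those tested, and 3628 genes, the called ones included, reached an unadjusted p under 0.05. The LPS effect was higher in KO for 183 genes (0.693% of those tested) and lower for 240 (0.908%). The median size of a called interaction was 1.25, and 261 of the 423 reached 1, a 2-fold difference in the response. Protein-coding genes made up 384 of the 423, and processed pseudogenes 9. Among the 1476 genes that rose at least 2-fold with LPS in WT, 209 had a called interaction, or 14.2%. Among the 2473 genes that fell at least 2-fold in WT, 27 did, or 1.09%. Both shares rest on WT libraries that also enter the interaction, and they are given as a description. Genes were sorted by their LPS effects in the 2 lines. The response was weaker in KO for 203 genes, stronger for 159 and reversed for 61. "Reversed" required a called LPS effect of opposite sign in each line. A gene whose effects had opposite signs without both being called was placed by their size among the weaker or stronger responses.

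**Figure D1:**
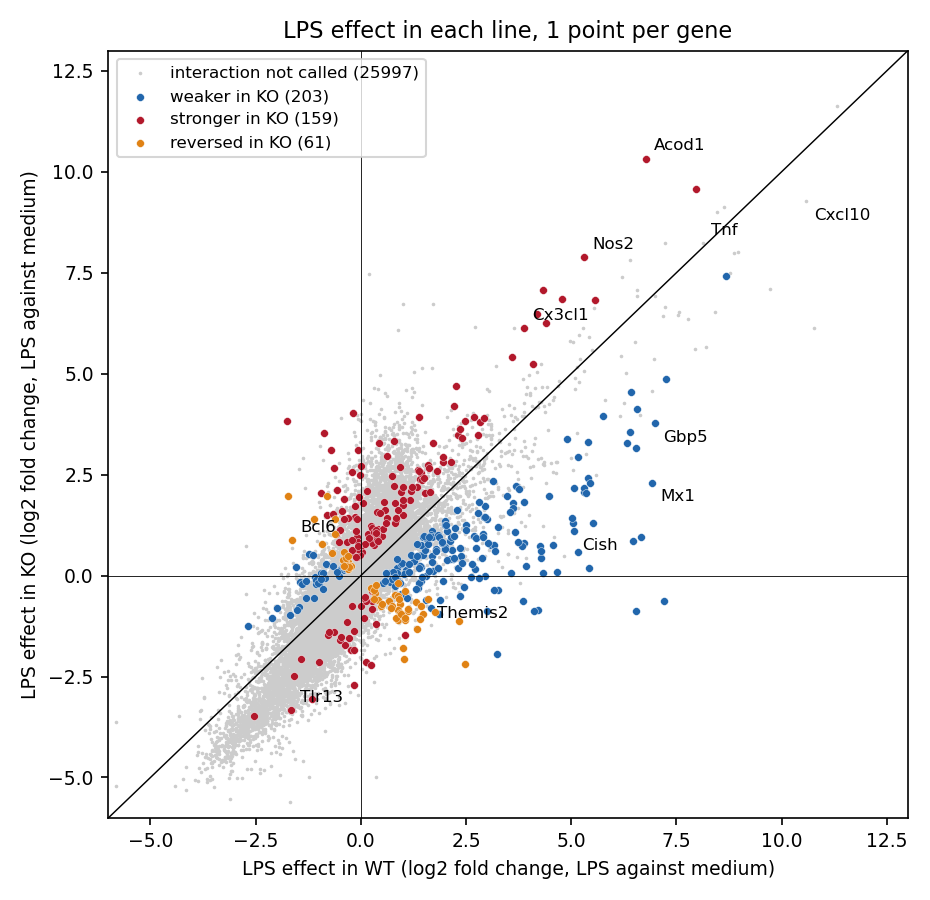
Each point is 1 gene, with its LPS effect (log2 fold change) in WT on the horizontal axis and in KO on the vertical axis. Genes on the diagonal respond alike; grey points have no called interaction, and 2 genes lie outside the axes. Weaker induced genes (blue, positive WT effect) lie below the diagonal, up to a WT effect of 8.69 for Gbp2, and stronger induced genes (red) lie above it.

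Weakened inductions differed mostly in the level under LPS. In the 169 weaker induced genes the median LPS effect was 2.36 in WT and 0.63 in KO, and the KO effect was itself not called for 78 of them. The lines differed under LPS only for 98 of these genes, in both treatments for 65 and in medium only for 6. Under LPS the KO level was lower for 162 of the 169, and the rise in CPM was smaller in KO for 168. The stronger inductions were built differently. In those 128 genes the median LPS effect was 0.44 in WT and 1.85 in KO, but the lines differed in medium only for 38, in both treatments for 53 and under LPS only for 37. The change in CPM was larger in size in KO for 103 of the 128 and smaller for 25. For 66 of the 128 the KO level was lower in medium and not higher under LPS, so that the larger fold rose from a lower start to a level not called higher than in WT. For 45 it was higher under LPS and not lower in medium. These line differences come from the same libraries as the interaction and describe it. In these bulk libraries, fewer responding cells and a smaller response per cell cannot be told apart.

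**Figure D2:**
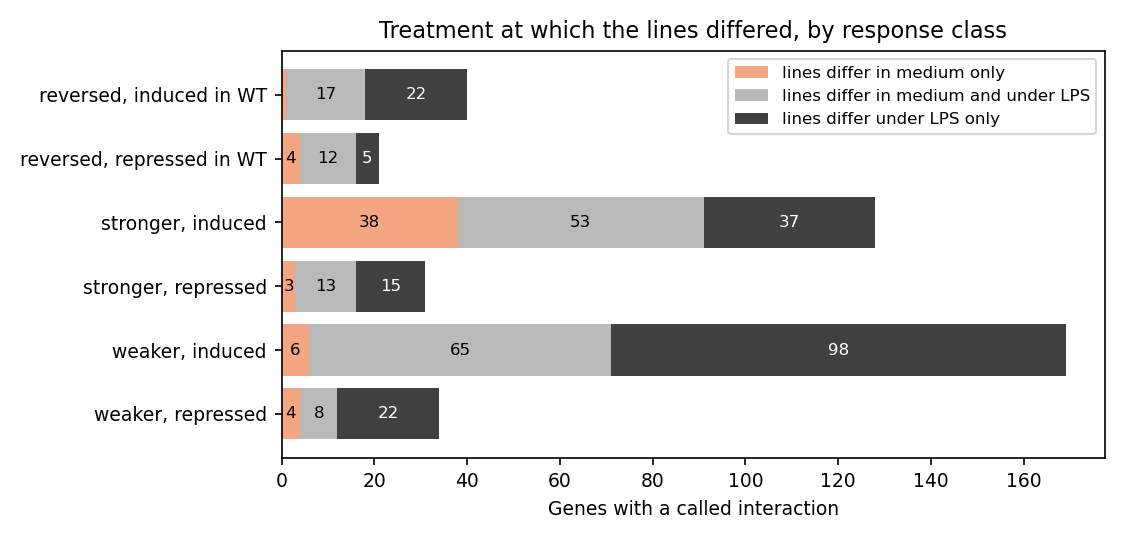
Bars give the number of genes with a called interaction in each response class, split by the treatment at which KO differed from WT (medium only, both, LPS only). LPS-only differences are the largest share of the weaker induced genes (98 of 169), while medium-only differences are frequent among the stronger induced genes (38 of 128).

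Among the gene lists, the antiviral interferon-stimulated genes held the most members with a lower LPS effect in KO. These genes encode proteins that detect viral RNA, degrade it or block its translation. Of 55 list members tested, 17 had a lower and 2 a higher LPS effect in KO, against 0.908% and 0.693% of all genes tested. The median interaction was -0.99 in the list against -0.016 over all genes. The median LPS effect was 3.66 in WT and 2.22 in KO, so the list as a whole still rose with LPS in both lines. The clearest member was Isg20, an exonuclease that degrades viral RNA. It was measured at 0.737, 0.908 and 0.997 CPM in WT in medium, 31.3, 31.6 and 26.8 CPM in WT under LPS, 0.447, 0.353 and 0.466 CPM in KO in medium and 2.19, 1.49 and 2.07 CPM in KO under LPS. All WT LPS libraries stood above all KO LPS libraries, and LPS raised Isg20 33.7-fold in WT and 4.5-fold in KO. The interaction was -2.90 ± 0.27 (adjusted p = 0.000451), and it ranged from -3.02 to -2.75 when each library was left out.

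Mx1, a GTPase gene of the antiviral list, responded in the same way and was picked after its values were seen. It was measured at 0.105, 0.0865 and 0.125 CPM in WT in medium, 12.9, 15.7 and 11.5 CPM in WT under LPS, 0.136, 0.155 and 0.0811 CPM in KO in medium and 0.652, 0.46 and 0.754 CPM in KO under LPS. The groups overlapped in medium and were separate under LPS, where the rise in KO was 3.76% of the rise in WT. The interaction of Mx1 was -4.63 ± 0.43 (adjusted p = 0.000519). Ifih1 encodes MDA5, a cytosolic sensor of long double-stranded RNA. Its levels were 1.07, 0.497 and 0.67 CPM in WT in medium, 84.7, 54.8 and 39.8 CPM in WT under LPS, 0.156, 0.155 and 0.223 CPM in KO in medium and 2.17, 1.56 and 1.58 CPM in KO under LPS. The KO libraries were lower than the WT libraries in both treatments, by 4.14-fold in medium and 33.7-fold under LPS. Its interaction of -3.02 ± 0.55 (adjusted p = 0.0231) fell out of the calls when KO LPS replicate 3, KO medium replicate 1, KO medium replicate 3 or WT medium replicate 3 was left out (adjusted p up to 0.104). Parp12, an ADP-ribosyltransferase with antiviral activity, had a smaller but steadier change. LPS raised it from 24.3 ± 2.01 to 106 ± 7.17 CPM in WT and from 28.99 ± 0.431 to 56.2 ± 7.57 CPM in KO (mean ± SD, n = 3), with an interaction of -1.18 ± 0.14 (adjusted p = 0.00288).

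Ifit2, whose product binds viral RNA, shows how KO LPS replicate 2 enters these results. Its levels under LPS were 954, 769.7 and 829 CPM in WT and 251, 72.1 and 208 CPM in KO, with replicate 2 the lowest. The interaction of Ifit2, also chosen after its values were seen, was -2.46 ± 0.50 (adjusted p = 0.041) and lost its call in 9 of the 12 fits that left out 1 library (adjusted p up to 0.114). KO LPS replicate 2 was not among those 9 libraries, so the call of Ifit2 held without it. Without KO LPS replicate 2, 18 members of the antiviral list had a lower and 3 a higher LPS effect in KO. Without WT medium replicate 2 the counts were 20 and 2. Leaving out each library in turn gave 8 to 20 members with a lower LPS effect and a median interaction between -1.18 and -0.86.

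The 2 antiviral members with a higher LPS effect in KO were Rtp4 and Slfn2. Rtp4, a chaperone of the Golgi that is induced by interferon, was measured at 7.58, 6.86 and 4.41 CPM in WT in medium, 141, 119 and 121 CPM in WT under LPS, 0.389, 0.177 and 0.284 CPM in KO in medium and 57.1, 23.3 and 35.8 CPM in KO under LPS. It stayed below the WT libraries in both treatments, and its larger fold in KO (134 against 20.3) started from a level 21.7-fold lower in medium. The interaction of 2.72 ± 0.52 (adjusted p = 0.0304) lost its call in 8 of the 12 fits that left out 1 library (adjusted p up to 0.0867). Slfn2, a regulator of immune cell quiescence, was likewise lower in KO in medium, at 1.62 against 14.03 mean CPM. Its interaction of 2.07 ± 0.43 (adjusted p = 0.0411) lost its call in 7 of the 12 fits that left out 1 library (adjusted p up to 0.118), and 10.8% of its 31-base stretches also occur in transcripts of other genes.

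Interferon-inducible GTPases, which attack the membranes around intracellular pathogens, had the lowest median interaction of the 29 lists. Of 16 members 6 had a lower and 0 a higher LPS effect in KO, against 0.908% and 0.693% of all genes tested. The median interaction of the list was -1.73, and all 16 values were negative. At an unadjusted p under 0.05 edgeR gave 16 lower and 0 higher, and DESeq2 called 12 and 0. Of all 26420 genes tested, 3628 reached that p in either direction, and DESeq2 called 413 lower and 445 higher. The number of members with a lower effect was 3 to 10 when each library was left out, 9 without KO LPS replicate 2 and 10 without WT medium replicate 2. Gbp5, a guanylate-binding protein that promotes inflammasome assembly, was measured at 0.716, 0.281 and 0.872 CPM in WT in medium, 87.9, 87.1 and 69.3 CPM in WT under LPS, 0.564, 0.53 and 0.406 CPM in KO in medium and 7.69, 5.66 and 7.28 CPM in KO under LPS. The medium groups overlapped, whereas under LPS every WT library exceeded every KO library. LPS raised it 128-fold in WT and 13.7-fold in KO, with an interaction of -3.22 ± 0.42 (adjusted p = 0.00428). Gbp7 rose from 0.795 ± 0.184 to 119.7 ± 10.7 CPM in WT and from 0.23 ± 0.107 to 6.68 ± 0.629 CPM in KO, with an interaction of -2.38 ± 0.35 (adjusted p = 0.00717). The counts of Gbp7 share 14.7% of its 31-base stretches with other genes, which leaves its own level less certain. Gbp2 rose 413-fold in WT and 170.5-fold in KO, and its interaction of -1.28 ± 0.26 (adjusted p = 0.0368) lost its call in 8 of the 12 fits that left out 1 library (adjusted p up to 0.212). Iigp1, an immunity-related GTPase, reached 2.75, 2.42 and 2.31 CPM in WT and 0.326, 0.147 and 0.0942 CPM in KO under LPS. Its interaction of -4.23 ± 0.82 (adjusted p = 0.0281) lost its call in 8 of the 12 fits that left out 1 library (adjusted p up to 0.0983). Irgm1, the most abundant member, reached 209, 181 and 193 CPM in WT and 100.1, 41.6 and 91.2 CPM in KO under LPS, and its interaction of -1.37 ± 0.36 (adjusted p = 0.11) was not called.

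The promoters of 3 weaker induced genes are printed, picked as those with the largest interactions among genes that hold a match, to show the letters that interferon-activated factors are known to read. An interferon-stimulated response element is bound by IRF factors and by interferon-activated complexes that contain one. The letters searched were GAAA followed, after any 2 bases, by GAAA, on either strand, in the 250 bases before each RefSeq start site (GRCm38.p6). The match is in capitals, and sequences run along the strand of the gene.

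Gbp5 (chr3:142496734-142496813, plus strand, GRCm38.p6): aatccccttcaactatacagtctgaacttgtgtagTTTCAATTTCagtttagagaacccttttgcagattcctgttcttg
Ifi203 (chr1:173942493-173942572, minus strand, GRCm38.p6): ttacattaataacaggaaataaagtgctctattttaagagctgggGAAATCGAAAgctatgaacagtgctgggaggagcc
Gbp7 (chr3:142530248-142530327, plus strand, GRCm38.p6): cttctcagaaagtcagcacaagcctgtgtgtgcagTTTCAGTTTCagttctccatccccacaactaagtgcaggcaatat

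In Gbp5 and Gbp7 the capitals show the match as it reads from the opposite strand, with its first base 165 and 53 bases before the start. In Ifi203 the match lies on the strand of the gene, 35 bases before the start. Ifi203, an interferon-induced DNA sensor, rose from 6.93 ± 2.6 to 153 ± 39.5 CPM in WT and from 1.91 ± 0.324 to 7.54 ± 2.27 CPM in KO. Its interaction of -2.49 ± 0.46 (adjusted p = 0.0262) lost its call in 5 of the 12 fits that left out 1 library (adjusted p up to 0.0753), and 21.9% of its 31-base stretches occur in other genes. Such a match was present in 24 of 167 promoter windows of weaker induced genes (14.4%), in 2 of 124 windows of stronger induced genes (1.61%), and in 2.69% of the 17470 windows of all genes tested. Genes that rose at least 2-fold in WT without a called interaction had it in 6.85% of windows. The table held a promoter for 123 of 162 weaker induced and 87 of 127 stronger induced gene symbols. A match is a description of letters and not evidence of binding.

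The machinery that carries the interferon signal responded less in KO for 3 of 22 members tested, with 0 in the other direction and a median interaction of -0.22. Over all genes tested 0.908% were called lower and 0.693% higher. The median LPS effect of the list was 1.45 in WT and 1.52 in KO. At an unadjusted p under 0.05 edgeR gave 6 lower and 1 higher, and DESeq2 called 4 and 0. Of all 26420 genes tested, 3628 reached that p in either direction, and DESeq2 called 413 lower and 445 higher. The members called lower included Usp18 and Stat2. Usp18, which shuts off the interferon receptor and is itself an interferon target, was measured at 13.5, 12.5 and 9.63 CPM in WT in medium, 157, 143 and 139.9 CPM in WT under LPS, 15.9, 15.1 and 15.3 CPM in KO in medium and 63.4, 29.9 and 55.7 CPM in KO under LPS. The LPS groups did not overlap, KO LPS replicate 2 was the lowest library under LPS, and the interaction was -1.94 ± 0.32 (adjusted p = 0.0141). Stat2 rose 4.61-fold in WT and 1.99-fold in KO, and its interaction of -1.21 ± 0.22 (adjusted p = 0.0227) lost its call in 6 of the 12 fits that left out 1 library (adjusted p up to 0.0705). Without KO LPS replicate 2 the list had 3 lower and 3 higher members.

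Ifnb1, which encodes interferon beta, was barely counted in medium. Its counts were 0, 1 and 0 in WT medium, 224, 78 and 127 in WT LPS, 2, 0 and 0 in KO medium, and 50, 22 and 42 in KO LPS. Every LPS library exceeded every medium library. Under LPS the level was 3.87, 1.94 and 2.01 CPM in WT and 1.09, 0.404 and 0.989 CPM in KO, a KO minus WT difference of -1.67 ± 0.46 (adjusted p = 0.0239). The interaction of Ifnb1, -2.53 ± 1.94 (adjusted p = 0.587), was not called, and with so few counts in medium the fold changes depend on the prior count of the fit.

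Tlr3, the endosomal receptor for double-stranded RNA, was measured at 0.19, 0.195 and 0.0779 CPM in WT in medium, 5.01, 4.81 and 5.16 CPM in WT under LPS, 0.136, 0.133 and 0.203 CPM in KO in medium and 0.369, 0.441 and 0.353 CPM in KO under LPS. It rose 32.9-fold in WT and 2.45-fold in KO, with an interaction of -3.75 ± 0.45 (adjusted p = 0.00288). Batf2, a basic leucine zipper factor induced in activated macrophages, reached 7.69, 8.3 and 5.9 CPM in WT and 1.17, 0.662 and 0.942 CPM in KO under LPS, with an interaction of -3.52 ± 0.42 (adjusted p = 0.00288). Nlrc5, the transactivator of MHC class I genes, was the 1 called member of 18 in the MHC class I list, against 1.6% of all genes tested. It rose 2.22-fold in WT and 1.22-fold in KO, and its interaction of -0.86 ± 0.14 (adjusted p = 0.00988) fell out of the calls when KO medium replicate 3 or WT medium replicate 1 was left out (adjusted p up to 0.0638).

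Among cytokines and their antagonists, 4 of 24 members had a lower and 1 a higher LPS effect in KO, against 0.908% and 0.693% of all genes tested. The median interaction of the list was -0.20. Il27, a subunit of interleukin 27, was measured at 0.295, 0.389 and 0.218 CPM in WT in medium, 14.4, 11.8 and 9.5 CPM in WT under LPS, 0.194, 0.619 and 0.365 CPM in KO in medium and 2.06, 1.36 and 1.91 CPM in KO under LPS. It rose 39.7-fold in WT and 4.54-fold in KO, with an interaction of -3.13 ± 0.52 (adjusted p = 0.0124). Tnfsf10, the death ligand TRAIL, reached 5.48, 6.06 and 6.13 CPM in WT and 1.13, 0.735 and 1.3 CPM in KO under LPS, with an interaction of -3.23 ± 0.48 (adjusted p = 0.00769). Il23a, the specific subunit of interleukin 23, rose 7.5-fold in WT and 2.03-fold in KO, and its interaction of -1.89 ± 0.34 (adjusted p = 0.0179) fell out of the calls when KO LPS replicate 3, KO medium replicate 3, WT LPS replicate 1 or WT medium replicate 1 was left out (adjusted p up to 0.0666). Osm, an interleukin 6 family cytokine, differed in a narrow way: it rose 8.88-fold in WT and 5.04-fold in KO, from 9.66 ± 0.289 CPM in WT medium and 4.14 ± 0.291 CPM in KO medium, with an interaction of -0.82 ± 0.11 (adjusted p = 0.00392). Among chemokines, Cxcl11, a ligand of CXCR3, reached 3.09, 1.85 and 2.01 CPM in WT and 0.283, 0.129 and 0.259 CPM in KO under LPS, with an interaction of -4.56 ± 0.58 (adjusted p = 0.00344). The KO libraries of Cxcl11 overlapped between medium and LPS, and 42.2% of its 31-base stretches occur in other genes.

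For the classical inflammatory cytokines no interaction was called. Tnf was measured at 6.38, 6.96 and 6.33 CPM in WT in medium, 2045, 1793 and 1672 CPM in WT under LPS, 3.97, 3.98 and 4.5 CPM in KO in medium and 1370.5, 1355 and 1042 CPM in KO under LPS. LPS raised it 280.1-fold in WT and 303-fold in KO, and the interaction was 0.11 ± 0.18 (adjusted p = 0.794). Il1b rose 149-fold and 301-fold from a lower level in KO (0.462 against 2.24 mean CPM in medium), with an interaction of 1.01 ± 0.35 (adjusted p = 0.231). Its KO level stayed 2.36-fold lower under LPS (141 against 332 mean CPM). Il6 was measured at 97.8, 58.9 and 45.2 CPM in WT and at 18.6, 24.5 and 11.7 CPM in KO under LPS. Its interaction of -2.62 ± 0.83 (adjusted p = 0.189) was not called, although the KO level under LPS was lower, with a KO minus WT difference of -1.88 ± 0.32 (adjusted p = 0.00177). Cxcl10, a chemokine induced by interferon, reached 1409.9, 1019 and 1165 CPM in WT and 299, 201 and 268 CPM in KO. The interaction of Cxcl10, -1.30 ± 0.33 (adjusted p = 0.0873), missed the threshold, and its adjusted p was 0.0362 to 0.241 when each library was left out. The interactions of Isg15 (-0.75 ± 0.50 (adjusted p = 0.544)) and Rsad2 (-0.88 ± 0.62 (adjusted p = 0.563)), both antiviral proteins, were not called. Under LPS, Rsad2 was measured at 4625, 3825 and 3834 CPM in WT and at 1129.6, 287 and 938 CPM in KO, with KO LPS replicate 2 the lowest. Ptgs2, the inducible cyclooxygenase, rose 149.6-fold in WT and 101-fold in KO with an interaction of -0.57 ± 0.23 (adjusted p = 0.302). The KO level of Ptgs2 was 3.18-fold lower in medium and 4.73-fold lower under LPS. Ptges, which makes prostaglandin E2 from the product of that enzyme, rose 6.95-fold and 2.95-fold. Its interaction of -1.24 ± 0.21 (adjusted p = 0.0138) fell out of the calls when WT LPS replicate 1 was left out (adjusted p up to 0.0544).

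Tlr4, the LPS receptor itself, was measured at 64.998, 54.04 and 54.2 CPM in WT in medium, 37.8, 39.4 and 38.3 CPM in WT under LPS, 43.2, 32.4 and 36.5 CPM in KO in medium and 18.5, 15.1 and 18.3 CPM in KO under LPS. It fell with LPS in both lines, and its interaction was -0.52 ± 0.17 (adjusted p = 0.189). Of the 25 members of the TLR4 receptor and adaptor list, 1 was called, against 1.6% of all genes tested. The called member was Ikbke, an IRF3-activating kinase, which rose 17.1-fold in WT and 38.04-fold in KO. Its interaction of 1.15 ± 0.22 (adjusted p = 0.0233) lost its call in 7 of the 12 fits that left out 1 library (adjusted p up to 0.0785).

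The largest interaction under the naming rule belonged to Cish, an inhibitor of cytokine receptor signalling that STAT5 is known to induce. Cish was measured at 0.737, 0.649 and 0.748 CPM in WT in medium, 26.2, 26.3 and 19.7 CPM in WT under LPS, 0.622, 0.84 and 0.689 CPM in KO in medium and 1.87, 1.14 and 1.63 CPM in KO under LPS. The 2 lines overlapped in medium and were separate under LPS, where the rise in KO was 3.55% of the rise in WT. The LPS effect was 5.07 in WT and 1.10 in KO, and the interaction was -3.97 ± 0.30 (adjusted p = 0.000118), with a range of -4.13 to -3.79 when each library was left out. Socs2, another STAT5-induced inhibitor, was examined after its values were seen. It was measured at 3.69, 2.9 and 3.19 CPM in WT in medium, 8.55, 9.1 and 6.68 CPM in WT under LPS, 2.9, 2.83 and 3.06 CPM in KO in medium and 1.83, 1.84 and 1.93 CPM in KO under LPS. LPS raised it in WT and lowered it in KO, and the groups did not overlap under LPS. The interaction of Socs2 was -1.96 ± 0.23 (adjusted p = 0.00232).

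Bcl6, a transcriptional repressor that STAT5 is known to repress, moved in the opposite direction. It was measured at 33.7, 29.5 and 32.9 CPM in WT in medium, 9.81, 8.33 and 12.5 CPM in WT under LPS, 30.8, 26.2 and 29.1 CPM in KO in medium and 57.7, 46.8 and 53.02 CPM in KO under LPS. In WT every LPS library lay below every medium library, and in KO every LPS library lay above. The LPS effect was -1.64 in WT and 0.87 in KO, and the interaction was 2.52 ± 0.20 (adjusted p = 0.000166), with a range of 2.39 to 2.69 when each library was left out. Its promoter is shown because it holds several STAT-type motifs. The letters searched were TTC and GAA separated by any 3 bases, the core that STAT factors bind, and each match is in capitals.

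Bcl6 (chr16:23981348-23981467, minus strand, GRCm38.p6): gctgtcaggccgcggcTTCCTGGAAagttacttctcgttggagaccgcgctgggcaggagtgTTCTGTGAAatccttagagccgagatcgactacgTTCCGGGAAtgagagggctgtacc

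The 3 matches begin 168, 122 and 88 bases before the start. Of the 17470 windows of tested genes 4 held 3 or more such matches (0.0229%), and 5.96% held at least 1. Bcl6 had 2 windows and the one with the most matches was shown, so its place among the 4 follows from that choice. The promoter window of Cish held none, which says only that these letters are not in the 250 bases searched. The letters were in 8.98% of windows of weaker induced genes and in 8.81% of windows of genes that rose at least 2-fold in WT without a called interaction. They were in 3.23% of windows of stronger induced genes, in 6 of 34 windows of reversed genes induced in WT (17.6%) and in 4 of 33 windows of reversed genes repressed in WT (12.1%), the class of Bcl6. The last count includes the Bcl6 window shown.

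Csf2ra and Csf2 encode the receptor chain and the cytokine of the GM-CSF system, which signals through STAT5, and their values are set beside those of Cish, Socs2 and Bcl6. They were chosen after their values were seen. Csf2ra was measured at 49.9, 49.1 and 58.3 CPM in WT in medium, 69.8, 97.1 and 76.1 CPM in WT under LPS, 0.797, 0.729 and 0.547 CPM in KO in medium and 0.848, 0.993 and 1.08 CPM in KO under LPS. The lowest WT library lay far above the highest KO library, with a KO minus WT difference of -6.24 ± 0.19 (adjusted p = 5.21e-09) in medium. The counts of Csf2 were 1, 2 and 2 in WT medium, 185, 133 and 82 in WT LPS, 4, 4 and 7 in KO medium, and 45, 227 and 40 in KO LPS. The cytokine gene was thus induced in both lines, and its interaction was -1.97 ± 1.20 (adjusted p = 0.502). The interaction of Csf2ra itself was -0.14 ± 0.24 (adjusted p = 0.858). Whether these levels bear on Cish, Socs2 or Bcl6 was not tested.

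Tmem171 and Hdc of the weaker induced class kept their calls in each of the 12 fits that left out 1 library. Tmem171, a transmembrane protein, was measured at 1.83, 1.88 and 1.99 CPM in WT in medium, 27.8, 28.1 and 25.4 CPM in WT under LPS, 0.35, 0.331 and 0.264 CPM in KO in medium and 0.587, 0.423 and 0.565 CPM in KO under LPS. The KO level was 6.01-fold lower in medium and 51.6-fold lower under LPS, and the interaction was -3.10 ± 0.23 (adjusted p = 0.000113). Hdc, the enzyme that makes histamine, was measured at 0.253, 0.476 and 0.265 CPM in WT in medium, 16.1, 15.1 and 10.8 CPM in WT under LPS, 0.35, 0.353 and 0.385 CPM in KO in medium and 2.37, 1.75 and 1.77 CPM in KO under LPS. Its medium groups overlapped, LPS raised it 42.4-fold in WT and 5.37-fold in KO, and the interaction was -2.98 ± 0.37 (adjusted p = 0.0034). Glipr2 and Atp13a4, chosen after their values were seen, had called inductions in WT and none in KO. Glipr2 rose from 6.55 ± 0.0444 to 23.98 ± 3.71 CPM in WT and stood at 0.325 ± 0.0963 (medium) and 0.211 ± 0.0542 (LPS) CPM in KO. Atp13a4 rose from 2.73 ± 0.486 to 16.8 ± 5.18 CPM in WT and stood at 0.151 ± 0.00761 (medium) and 0.145 ± 0.0246 (LPS) CPM in KO. Their interactions were -2.49 ± 0.33 (adjusted p = 0.00404) and -2.66 ± 0.42 (adjusted p = 0.0101).

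**Figure D3:**
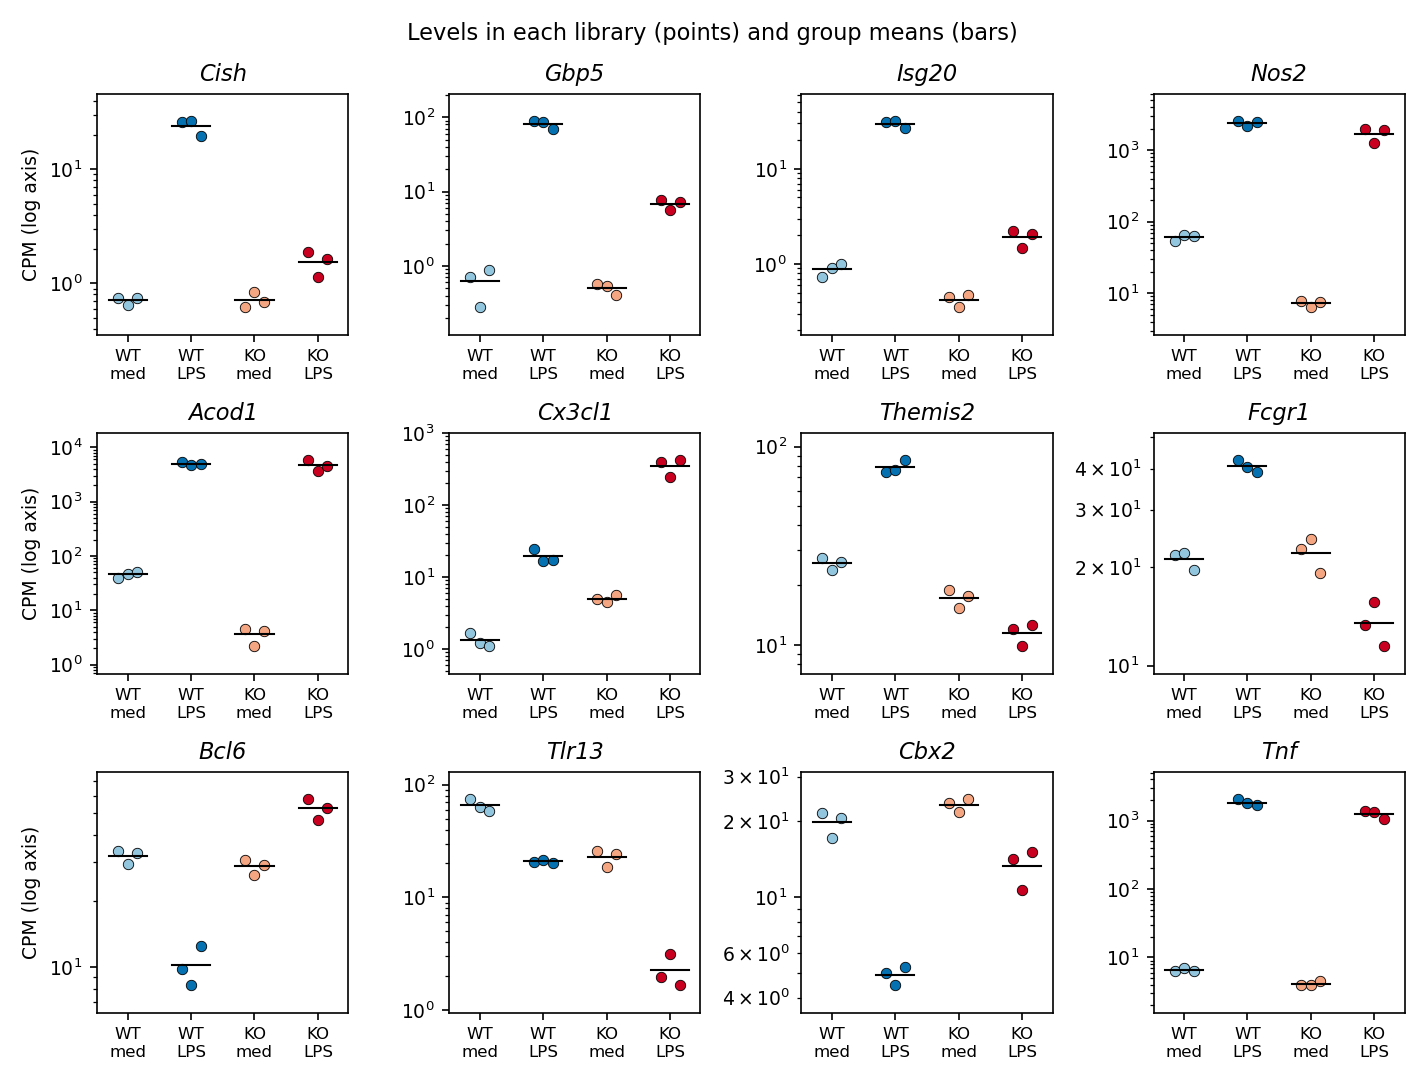
Each point is 1 library and each bar a group mean, in CPM on a log axis that differs between panels, for 12 genes in the 4 groups (med, medium). Cish, Gbp5 and Isg20 rise less in KO. Nos2 and Acod1 start lower in KO, and under LPS Acod1 overlaps WT while Nos2 stays 1.4-fold lower. Cx3cl1 rises further, and Themis2, Fcgr1 and Bcl6 move in opposite directions in the 2 lines. Tnf, shown for comparison, has an interaction of 0.11.

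Stronger inductions in KO included both marker enzymes of inflammatory macrophages. Nos2, the inducible nitric oxide synthase, was measured at 53.3, 65.1 and 63.02 CPM in WT in medium, 2522, 2157 and 2489 CPM in WT under LPS, 7.76, 6.43 and 7.44 CPM in KO in medium and 1962, 1272 and 1882 CPM in KO under LPS. Its KO level was 8.38-fold lower in medium and 1.4-fold lower under LPS. LPS raised Nos2 39.5-fold in WT and 236-fold in KO, and the interaction was 2.58 ± 0.23 (adjusted p = 0.000419). Acod1, which makes itaconate from a citric acid cycle intermediate, was measured at 40.03, 45.9 and 51.4 CPM in WT in medium, 5422, 4657 and 4962 CPM in WT under LPS, 4.47, 2.21 and 4.18 CPM in KO in medium and 5757, 3652 and 4598 CPM in KO under LPS. Under LPS the lines overlapped, with a KO minus WT difference of -0.10 ± 0.22 (adjusted p = 0.843), while in medium KO was 12.6-fold lower. The interaction of Acod1 was 3.55 ± 0.34 (adjusted p = 0.000567). In CPM the KO rise was 72.9% of the WT rise for Nos2 and 93.9% for Acod1, so the stronger response of both genes is one of fold and not of amount. These were the 2 called members of 15 in the nitric oxide, itaconate and oxidase list, against 0.693% of all genes tested called higher and 0.908% called lower.

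Treml4 and Adam8 had the same form. Treml4, a myeloid receptor that enhances Toll-like receptor signalling, was measured at 7.08, 6.88 and 7.99 CPM in WT in medium, 19.6, 17.5 and 19.9 CPM in WT under LPS, 0.603, 0.729 and 0.426 CPM in KO in medium and 9.08, 10.3 and 7.58 CPM in KO under LPS, and its interaction was 2.56 ± 0.25 (adjusted p = 0.000729). Adam8, a membrane metalloprotease of leukocytes, rose from 91.95 ± 4.36 to 141 ± 11.2 CPM in WT and from 2.53 ± 0.475 to 19.6 ± 5.15 CPM in KO, with an interaction of 2.34 ± 0.26 (adjusted p = 0.0018). Both stayed lower in KO than in WT in each treatment. Stx11, a protein of vesicle fusion chosen after its values were seen, reached 21.1, 13.2 and 24.9 CPM in KO against 51.97, 53.2 and 60.9 CPM in WT, from 0.219 and 3.01 mean CPM in medium. Its interaction was 2.28 ± 0.33 (adjusted p = 0.00719).

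Other genes reached a higher level in KO than in WT under LPS. P2rx1, an ATP-gated ion channel, was measured at 0.548, 0.519 and 0.421 CPM in WT in medium, 2.76, 1.99 and 2.33 CPM in WT under LPS, 0.739, 0.53 and 0.71 CPM in KO in medium and 20.3, 11.4 and 20.3 CPM in KO under LPS. The lines overlapped in medium, and under LPS every KO library exceeded every WT library; the interaction was 2.45 ± 0.36 (adjusted p = 0.00719). Cx3cl1, the chemokine whose receptor CX3CR1 is typical of microglia, was measured at 1.66, 1.21 and 1.11 CPM in WT in medium, 24.3, 16.7 and 17.4 CPM in WT under LPS, 5.02, 4.44 and 5.56 CPM in KO in medium and 392, 247 and 418 CPM in KO under LPS. KO was higher in both treatments, and the LPS effect was 3.88 in WT and 6.14 in KO, with an interaction of 2.25 ± 0.33 (adjusted p = 0.00769). Ccl2, a chemokine that draws monocytes, reached 1542, 1483 and 1355 CPM in WT and 1981, 1409 and 1403 CPM in KO under LPS, which overlapped. In medium Ccl2 stood at 5.81 ± 0.663 CPM in WT and at 2.09 ± 0.154 CPM in KO, and the interaction was 1.60 ± 0.21 (adjusted p = 0.00391). Cx3cl1 and Ccl2 were the 2 chemokines of 18 with a higher LPS effect in KO, against 0.693% of all genes tested. Il1rn, the natural antagonist of the interleukin 1 receptor, was the cytokine list member with a higher LPS effect. It rose from 188 ± 8.86 to 3983 ± 494 CPM in WT and from 10.3 ± 2.51 to 782 ± 170.3 CPM in KO, with an interaction of 1.84 ± 0.27 (adjusted p = 0.00719), so its KO level stayed lower in both treatments.

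Of 25 NF-kB subunits and feedback genes, 2 had a higher and 0 a lower LPS effect in KO by edgeR, against 0.693% and 0.908% of all genes tested. At an unadjusted p under 0.05 the counts in the list were 8 and 1, and by DESeq2 5 and 0. Of all 26420 genes tested, 3628 reached that p in either direction, and DESeq2 called 445 higher and 413 lower. The median interaction of the list was 0.24, and 19 of the 25 values were positive. Traf1, an adaptor induced by NF-kB, was measured at 7.16, 7.31 and 8.26 CPM in WT in medium, 374, 358 and 348 CPM in WT under LPS, 2.02, 2.14 and 2.49 CPM in KO in medium and 279.6, 215 and 261 CPM in KO under LPS. It rose 47.5-fold in WT and 113-fold in KO, with an interaction of 1.25 ± 0.16 (adjusted p = 0.00344). Tnip3, an inhibitor of NF-kB signalling, rose from 12.7 ± 1.33 to 59.1 ± 8.09 CPM in WT and from 2.18 ± 0.45 to 39.9 ± 11.3 CPM in KO, with an interaction of 1.97 ± 0.29 (adjusted p = 0.00719). The number of members with a higher effect was 8 without KO LPS replicate 2 and 5 without WT medium replicate 2. Tnfaip2, the most abundant member, had an interaction of 1.42 ± 0.36 (adjusted p = 0.0973); its KO LPS values were 1952, 824 and 1703 CPM, with replicate 2 the lowest.

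For the NF-kB motif the letters searched were GGGA, then any 1 base, then TTTCC, on either strand of the same windows. The 2 stronger induced genes that held it are printed.

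Slc6a12 (chr6:121342406-121342485, plus strand, GRCm38.p6): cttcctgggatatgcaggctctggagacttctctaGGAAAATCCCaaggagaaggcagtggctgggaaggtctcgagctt
Neurl3 (chr1:36273491-36273570, minus strand, GRCm38.p6): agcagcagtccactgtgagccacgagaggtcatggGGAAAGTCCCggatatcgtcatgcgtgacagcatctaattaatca

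Both matches read from the strand opposite to the gene, and begin 133 and 110 bases before the start. The letters occurred in 1.61% of windows of stronger induced genes, 1.80% of weaker induced genes, 1.57% of genes that rose at least 2-fold in WT without a called interaction and 0.389% of all genes tested. Slc6a12, a betaine and GABA transporter, was measured at 101, 103 and 101 CPM in WT in medium, 83.4, 81.2 and 79.7 CPM in WT under LPS, 41.4, 64.4 and 40.6 CPM in KO in medium and 92.8, 81.5 and 84.9 CPM in KO under LPS, and its interaction of 1.14 ± 0.21 (adjusted p = 0.0192) lost its call in 5 of the 12 fits that left out 1 library (adjusted p up to 0.0628). In WT its LPS values lay below its medium values, a fall that was not called. In KO it rose from a lower level to values that overlapped those of WT under LPS. Neurl3, a ubiquitin ligase known to be induced by LPS, rose from 43.6 ± 7.2 to 59.5 ± 6.21 CPM in WT and from 40.98 ± 3.25 to 119 ± 5.69 CPM in KO, with an interaction of 1.09 ± 0.17 (adjusted p = 0.00832).

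Cholesterol synthesis and uptake had the highest median interaction of the 29 lists, at 0.45. Of 24 members 6 had a higher and 0 a lower LPS effect in KO, against 0.693% and 0.908% of all genes tested. In the list 22 of the 24 values were positive. At an unadjusted p under 0.05 edgeR gave 16 higher and 0 lower, and DESeq2 called 11 and 0. Of all 26420 genes tested, 3628 reached that p in either direction, and DESeq2 called 445 higher and 413 lower. The median LPS effect of the list was 0.08 in WT and 0.59 in KO. Its median KO minus WT difference was -0.48 in medium and -0.06 under LPS. Msmo1, a sterol methyl oxidase late in the pathway, was measured at 162, 146 and 146 CPM in WT in medium, 191, 179 and 185 CPM in WT under LPS, 107, 112 and 118 CPM in KO in medium and 235, 229 and 238 CPM in KO under LPS. KO lay below WT in medium and above it under LPS, and the interaction was 0.77 ± 0.10 (adjusted p = 0.00344). Hsd17b7, which reduces the sterol ring ketone, rose 1.54-fold in WT and 2.67-fold in KO, and its interaction of 0.79 ± 0.14 (adjusted p = 0.018) fell out of the calls when WT LPS replicate 2 or WT LPS replicate 3 was left out (adjusted p up to 0.0619). Sqle, Fdft1, Mvd and Hmgcs1, enzymes of earlier steps, had interactions between 0.59 and 0.80. Sqle lost its call in 5 of the 12 fits that left out 1 library (adjusted p up to 0.0822), and Mvd fell out of the calls when KO LPS replicate 1, KO LPS replicate 3, WT LPS replicate 1 or WT LPS replicate 2 was left out (adjusted p up to 0.0744). Hmgcs1 lost its call in 7 of the 12 fits that left out 1 library (adjusted p up to 0.121), and Fdft1 fell out of the calls when KO LPS replicate 1, KO LPS replicate 3 or WT LPS replicate 2 was left out (adjusted p up to 0.0608). Over the fits that left out 1 library, 1 to 13 members were called, with a median interaction of 0.41 to 0.50; the count was 6 without KO LPS replicate 2 and 13 without WT medium replicate 2.

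Weakened repressions were fewer and smaller. In the 34 weaker repressed genes the median LPS effect was -1.04 in WT and -0.06 in KO, and KO was higher than WT under LPS for 27. Cbx2, a Polycomb subunit that reads methylated histones, was measured at 21.6, 17.2 and 20.5 CPM in WT in medium, 5.01, 4.49 and 5.27 CPM in WT under LPS, 23.6, 21.8 and 24.4 CPM in KO in medium and 14.2, 10.6 and 15.1 CPM in KO under LPS. The line difference in medium was not called, and under LPS the WT libraries lay below all KO libraries; the interaction was 1.20 ± 0.20 (adjusted p = 0.0116). Agfg2, a protein with nucleoporin-like repeats, fell from 43.1 ± 3.17 to 16.5 ± 1.76 CPM in WT, and stood at 39.5 ± 0.86 CPM (medium) and 33.9 ± 3.59 CPM (LPS) in KO, where its LPS effect of -0.22 was not called. Its interaction was 1.17 ± 0.14 (adjusted p = 0.00288). Tmem158, a membrane protein, had an interaction of 1.19 ± 0.18 (adjusted p = 0.00832), with LPS effects of -1.31 in WT and -0.12 in KO. Ccnd1, the cyclin of early G1, fell from 71.2 ± 7.99 to 37.2 ± 1.44 CPM in WT and stood at 61.8 ± 2.94 CPM (medium) and 58.5 ± 5.07 CPM (LPS) in KO, with an interaction of 0.86 ± 0.13 (adjusted p = 0.0083) and 22.3% of its 31-base stretches shared with other genes. Other genes of the class were less steady. Gcnt1, a glycosyltransferase, had an interaction of 1.79 ± 0.35 (adjusted p = 0.0328) and lost its call in 10 of the 12 fits that left out 1 library (adjusted p up to 0.103). Etv5, an ETS factor, had one of 1.12 ± 0.21 (adjusted p = 0.025) and lost its call in 7 of the 12 fits that left out 1 library (adjusted p up to 0.0661). Both had positive LPS effects in KO that were not called, 0.54 for Gcnt1 and 0.28 for Etv5, against -1.24 and -0.83 in WT. Fam78a had an interaction of 1.42 ± 0.24 (adjusted p = 0.0157) and fell out of the calls when WT LPS replicate 1 or WT LPS replicate 2 was left out (adjusted p up to 0.0548). Its KO level in medium was already 5.18-fold lower.

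In the 31 stronger repressed genes the median LPS effect was -0.22 in WT and -1.47 in KO, and KO was lower than WT under LPS for 26. Tlr13, the endosomal receptor for bacterial ribosomal RNA, was measured at 74.1, 63.6 and 58.6 CPM in WT in medium, 20.7, 21.3 and 20.4 CPM in WT under LPS, 26.03, 18.6 and 24.1 CPM in KO in medium and 1.98, 3.14 and 1.67 CPM in KO under LPS. It fell in both lines and by a larger fold in KO, where every LPS library lay under 4 CPM, and the interaction was -1.68 ± 0.28 (adjusted p = 0.0138). In CPM the change was -44.6 in WT and -20.6 in KO, where the level in medium was 2.86-fold lower. Plekha5, a phosphoinositide-binding protein, showed the opposite line difference in medium and was measured at 7.04, 6.44 and 4.95 CPM in WT in medium, 4.65, 5.14 and 5.35 CPM in WT under LPS, 27.7, 29.1 and 27.8 CPM in KO in medium and 8.98, 10.2 and 9.85 CPM in KO under LPS. Its fall in KO brought it closer to WT, and the interaction was -1.26 ± 0.18 (adjusted p = 0.00667). Rell1, a member of the RELT family of TNF receptor-like proteins, fell from 35.5 ± 7.01 to 13.6 ± 1.78 CPM in KO and stood at 32.9 ± 3.46 CPM (medium) and 29.6 ± 0.635 CPM (LPS) in WT, with an interaction of -1.23 ± 0.20 (adjusted p = 0.0126). Slc29a3, a lysosomal nucleoside transporter, had an interaction of -1.12 ± 0.19 (adjusted p = 0.0145) and fell out of the calls when WT LPS replicate 1 was left out (adjusted p up to 0.052). Cysltr1, a receptor for cysteinyl leukotrienes, had one of -1.15 ± 0.20 (adjusted p = 0.0179) and fell out of the calls when KO LPS replicate 3, KO medium replicate 3, WT LPS replicate 1 or WT LPS replicate 2 was left out (adjusted p up to 0.0619). Lyl1, a haematopoietic transcription factor, fell -2.54 in WT and -3.48 in KO on the log2 scale, and its interaction of -0.94 ± 0.17 (adjusted p = 0.0175) fell out of the calls when KO LPS replicate 3, KO medium replicate 3, WT LPS replicate 2 or WT LPS replicate 3 was left out (adjusted p up to 0.0609). Tlr7, the receptor for single-stranded RNA, fell in KO (-0.38), whereas its WT effect of 0.27 was not called; its interaction of -0.65 ± 0.14 (adjusted p = 0.0419) lost its call in 8 of the 12 fits that left out 1 library (adjusted p up to 0.127). With Tlr3, these were the 3 called members of 11 tested in the list of Toll-like receptors other than Tlr4, all with a lower LPS effect in KO. That list also holds Unc93b1 and Cnpy3, which are not Toll-like receptors. Over all genes tested 0.908% were called lower. Tlr2, the most abundant of the 11, had an interaction of 0.69 ± 0.22 (adjusted p = 0.194).

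Reversed responses were found for 61 genes, 40 induced in WT and repressed in KO and 21 the other way. With the processed-pseudogene share as a covariate 2 genes were reversed, 0 induced in WT and 2 repressed in WT. The median effects of the first group were 0.93 in WT and -0.75 in KO, and KO was lower than WT under LPS for 37 of the 40. Fcgr1, the high-affinity receptor for IgG and an interferon target, was measured at 21.8, 22.1 and 19.7 CPM in WT in medium, 42.4, 40.5 and 39.003 CPM in WT under LPS, 22.8, 24.4 and 19.2 CPM in KO in medium and 13.3, 15.7 and 11.5 CPM in KO under LPS. The medium groups overlapped, WT rose and KO fell with LPS, and the interaction was -1.65 ± 0.17 (adjusted p = 0.00101). Themis2, a signalling adaptor of macrophages and B cells, was chosen after its values were seen. It was measured at 27.3, 23.9 and 26.3 CPM in WT in medium, 74.5, 76.2 and 85.2 CPM in WT under LPS, 18.8, 15.4 and 17.6 CPM in KO in medium and 11.97, 9.87 and 12.6 CPM in KO under LPS. Under LPS its KO level was 6.85-fold lower, and the interaction was -2.19 ± 0.16 (adjusted p = 0.000113), with a range of -2.27 to -2.09 when each library was left out. Rbm43, an RNA-binding protein, was measured at 11.3, 8.35 and 9.04 CPM in WT in medium, 17.997, 17.95 and 19.1 CPM in WT under LPS, 9.53, 8.26 and 9.25 CPM in KO in medium and 5.37, 3.38 and 5.58 CPM in KO under LPS, with an interaction of -1.86 ± 0.25 (adjusted p = 0.00512). Slfn4, a Schlafen protein of activated myeloid cells, reached 13.6, 17.3 and 10.9 CPM in WT and 2.37, 2.06 and 2.26 CPM in KO under LPS, with an interaction of -3.44 ± 0.55 (adjusted p = 0.0113); 20.9% of its 31-base stretches occur in other genes. Cd38, an enzyme that consumes NAD, had an interaction of -2.01 ± 0.41 (adjusted p = 0.036) and lost its call in 8 of the 12 fits that left out 1 library (adjusted p up to 0.114). Rab30, a small GTPase of the Golgi, had one of -1.73 ± 0.37 (adjusted p = 0.041) and lost its call in 9 of the 12 fits that left out 1 library (adjusted p up to 0.121).

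In the 21 genes of the other direction the median effects were -0.40 in WT and 0.44 in KO, and Bcl6 (above) had the largest interaction of those named. Mical2, an enzyme that oxidises actin, was measured at 15.4, 18.97 and 18.99 CPM in WT in medium, 10.3, 11.8 and 12.98 CPM in WT under LPS, 0.272, 0.309 and 0.264 CPM in KO in medium and 0.739, 0.79 and 0.707 CPM in KO under LPS. It was 62.7-fold lower in KO in medium, so its rise in KO covered less than 1 CPM while WT fell by several, and the interaction was 2.01 ± 0.21 (adjusted p = 0.00122). Dmwd, a WD-repeat protein, had an interaction of 0.97 ± 0.16 (adjusted p = 0.0142) and fell out of the calls when KO medium replicate 3, WT LPS replicate 1 or WT LPS replicate 2 was left out (adjusted p up to 0.0586). Ldlrad3, a receptor related to the LDL receptor, had LPS effects of -0.43 in WT and 0.39 in KO and an interaction of 0.82 ± 0.12 (adjusted p = 0.00632). Both were lower in KO in each treatment.

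Of 23 receptors of phagocytosis 3 had a lower and 1 a higher LPS effect in KO, where 0.908% and 0.693% of all genes tested were called in these directions. The lower count was 1 to 4 when each library was left out. Beside Fcgr1, the inhibitory IgG receptor Fcgr2b rose 1.24-fold in WT and fell in KO, and its interaction of -0.90 ± 0.15 (adjusted p = 0.0128) fell out of the calls when KO medium replicate 1, KO medium replicate 3 or WT medium replicate 1 was left out (adjusted p up to 0.0606). Marco, a scavenger receptor for bacteria, was measured at 5.37, 3.77 and 3.83 CPM in WT and at 0.0217, 0.0735 and 0.0942 CPM in KO under LPS, and its interaction of -3.62 ± 0.79 (adjusted p = 0.0468) lost its call in 9 of the 12 fits that left out 1 library (adjusted p up to 0.233). Stab1, another scavenger receptor, had the higher LPS effect, with an interaction of 0.75 ± 0.16 (adjusted p = 0.0432), and lost its call in 9 of the 12 fits that left out 1 library (adjusted p up to 0.122). Cfb, complement factor B, and Fpr2, a formyl peptide receptor, were the 2 called members of 26 in the complement and chemoattractant list. The share called over all genes tested was 1.6%. Cfb reached 1.52, 1.7 and 1.36 CPM in WT and 0.196, 0.257 and 0.165 CPM in KO, with an interaction of -3.53 ± 0.56 (adjusted p = 0.0103), but 75.5% of its 31-base stretches are shared with other genes. Fpr2 stayed under 1 CPM in every library, and its interaction of -5.08 ± 1.12 (adjusted p = 0.0488) lost its call in 11 of the 12 fits that left out 1 library (adjusted p up to 0.164); 43.01% of its 31-base stretches are shared.

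Of 22 members of the BCL2 family and death receptor list, 2 had a higher and 2 a lower LPS effect in KO, against 0.693% and 0.908% of all genes tested, and the other 18 were not called. Casp8, the initiator caspase of death receptors, rose from 33.9 ± 2.92 to 61.8 ± 0.63 CPM in WT and stood at 38.7 ± 2.37 CPM (medium) and 40.1 ± 1.91 CPM (LPS) in KO, with an interaction of -0.81 ± 0.11 (adjusted p = 0.00481). Mlkl, the executor of necroptosis, rose 2.77-fold in WT and 1.43-fold in KO, with an interaction of -0.96 ± 0.14 (adjusted p = 0.00832). Bcl2l1, which encodes the survival protein BCL-XL, rose 6.46-fold in WT and 15.3-fold in KO from a lower level in KO medium, with an interaction of 1.25 ± 0.19 (adjusted p = 0.00868). Bid, a pro-apoptotic BCL2 relative, rose 1.78-fold and 2.61-fold, and its interaction of 0.55 ± 0.10 (adjusted p = 0.0215) fell out of the calls when KO LPS replicate 3, WT LPS replicate 1 or WT LPS replicate 2 was left out (adjusted p up to 0.0708).

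Among BET proteins, P-TEFb and Bcl6 corepressors, 3 of 14 members had a higher LPS effect and 0 a lower one (3 and 1 at an unadjusted p under 0.05 by edgeR, 3 and 0 by DESeq2). Over all genes tested 0.693% were called higher and 0.908% lower. Of these 26420 genes, 3628 reached the unadjusted p in either direction, and DESeq2 called 445 higher and 413 lower. Beside Bcl6, its corepressor Bcor was measured at 19.03, 17.4 and 21.3 CPM in WT in medium, 22.1, 21.5 and 22.3 CPM in WT under LPS, 18.2, 17.9 and 17.6 CPM in KO in medium and 36.7, 33.5 and 32.9 CPM in KO under LPS. Bcor rose in KO, its LPS effect of 0.19 in WT was not called, and the interaction was 0.75 ± 0.12 (adjusted p = 0.0101). Brd3, a BET protein that reads acetylated histones, fell in WT (-0.46), its KO effect of 0.16 was not called, and its interaction of 0.62 ± 0.13 (adjusted p = 0.0452) lost its call in 8 of the 12 fits that left out 1 library (adjusted p up to 0.144).

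Immediate early genes, myeloid transcription factors and G1/S genes each held called members in both directions. Nr4a1, an orphan nuclear receptor, rose 3.22-fold in WT and 1.26-fold in KO, and its interaction of -1.36 ± 0.24 (adjusted p = 0.017) fell out of the calls when KO medium replicate 3 or WT LPS replicate 1 was left out (adjusted p up to 0.0548). Jund, an AP-1 subunit, had an interaction of 0.93 ± 0.18 (adjusted p = 0.0279) and lost its call in 8 of the 12 fits that left out 1 library (adjusted p up to 0.0899); 50.1% of its 31-base stretches are shared. Cebpd, a C/EBP factor of inflammation, rose 5.12-fold in WT and 12.4-fold in KO, and its interaction of 1.27 ± 0.23 (adjusted p = 0.0205) lost its call in 7 of the 12 fits that left out 1 library (adjusted p up to 0.0744). Mcm10, a replication factor, had an interaction of -0.58 ± 0.11 (adjusted p = 0.0215) and lost its call in 9 of the 12 fits that left out 1 library (adjusted p up to 0.0935). Over the 29 lists, 624 genes were tested. Of these, 25 had a higher and 47 a lower LPS effect in KO, against 0.693% and 0.908% of all genes tested. No gene was called by edgeR in 10 lists: the inflammasome, sterol efflux and LXR targets, NRF2 targets, glycolysis, the integrated stress response, homeostatic and disease-associated microglia genes, lysosome and autophagy, G2/M and mitosis, and cytosolic ribosomal proteins. Of their 210 members, 14 were higher and 19 lower at an unadjusted p under 0.05, and DESeq2 called 3 and 3. Of all 26420 genes tested, 3628 reached that p in either direction, and DESeq2 called 445 higher and 413 lower. The median interactions of these lists lay between -0.16 and 0.19.

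**Figure D4:**
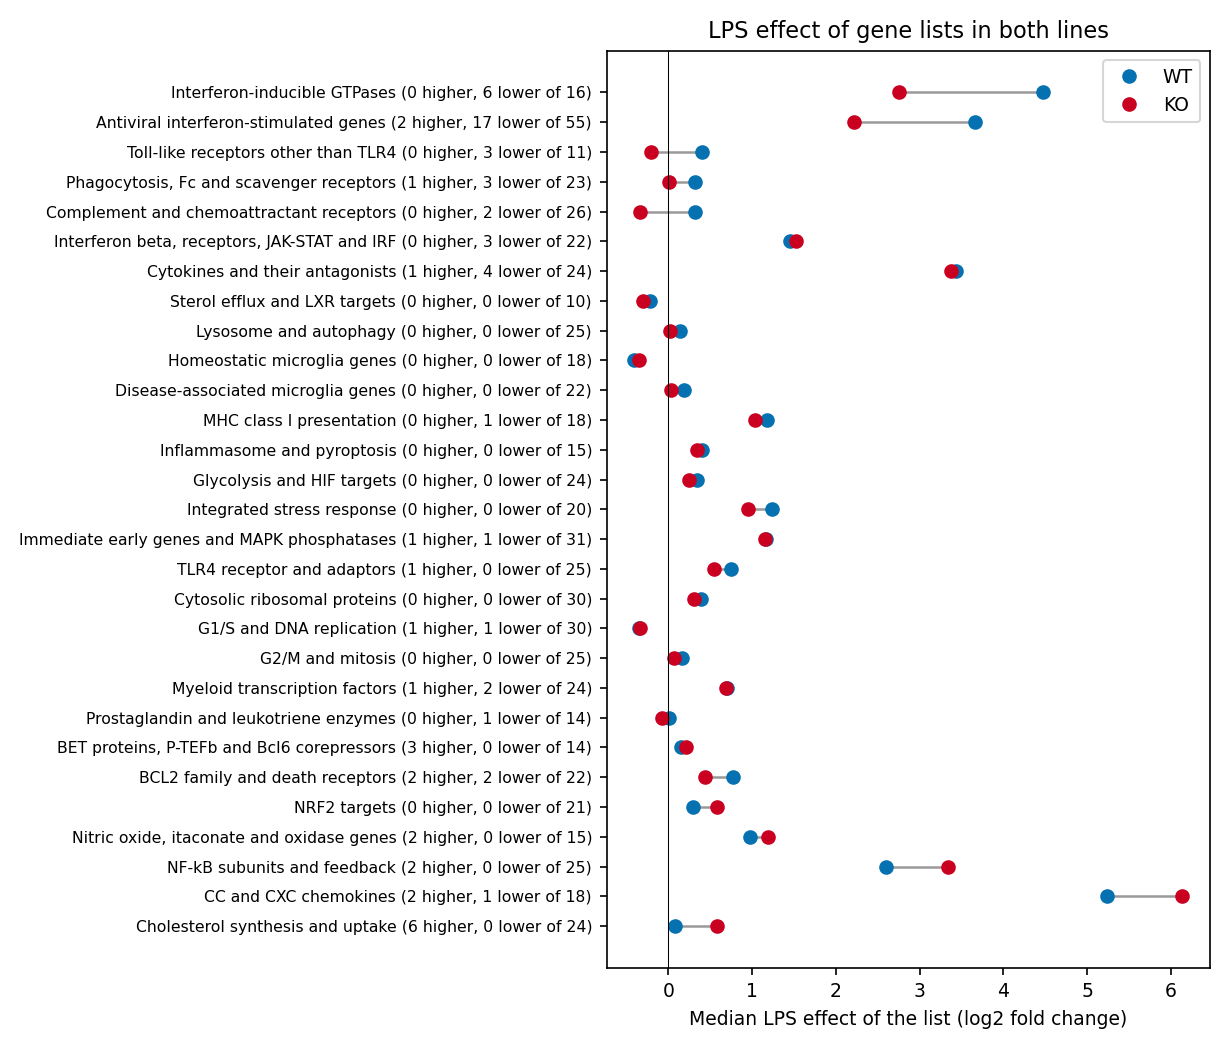
Each line joins the median LPS effect (log2 fold change) of 1 gene list in WT (blue) and in KO (red), ordered by the median interaction, with the number of called members in the label. The GTPase list falls from 4.48 in WT to 2.75 in KO and the antiviral list from 3.66 to 2.22, while cholesterol synthesis rises from 0.08 to 0.59.

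The genes next to the threshold show what the call separates. Just inside it lay Ppp1r16a, Klhl15 and Shtn1 with interactions of 0.89, 0.57 and 0.66, and Gtf2ird1, Uba7 and Vasp with -1.34, -1.48 and -0.62. Just outside lay Zfp703, Adss and Icam1 with 0.77, 0.38 and 0.76, and Nmi, Ddit4 and Crlf3 with -1.04, -1.34 and -0.57. The values on both sides are alike in size. The 6 genes just inside lost their calls in 9 to 11 of the 12 fits that left out 1 library.

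Shared sequence leaves the counts of some called genes less certain: 154 of the 423 had over 5% of their 31-base stretches in transcripts of other genes. Of the called genes described without that value, the share was 31.9% for Fdft1, 30.3% for Etv5, 18.8% for Fam78a, 16.9% for Bid, 14.2% for Cebpd, 13.1% for Hmgcs1, 12.5% for Rtp4 and 10.4% for Cish. It was 5.51% to 8.67% for Mx1, Casp8, Fcgr2b, Il27, Iigp1, Socs2, Tlr3 and Slc29a3.

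The calls depended on single libraries. Of the 423 genes 153 (36.2%) were called in each of the 12 fits that left out 1 library, and among them were 69 weaker induced, 40 stronger induced, 18 reversed genes induced in WT and 6 reversed the other way. No called gene changed sign in those fits. Without WT medium replicate 2 the calls rose to 1606 higher and 2391 lower, of which 1668 were processed pseudogenes, and all 423 genes kept their call. Without KO LPS replicate 2 they were 316 higher and 254 lower. Without both, an alternative chosen after seeing the data, they were 1350 higher and 1354 lower, and 421 of the 423 genes kept their call. With the processed-pseudogene share as a covariate 193 of the 423 kept their call. Over the fits that left out 1 library the lowest number, 69 higher and 117 lower, was found without WT LPS replicate 1.

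**Figure D5:**
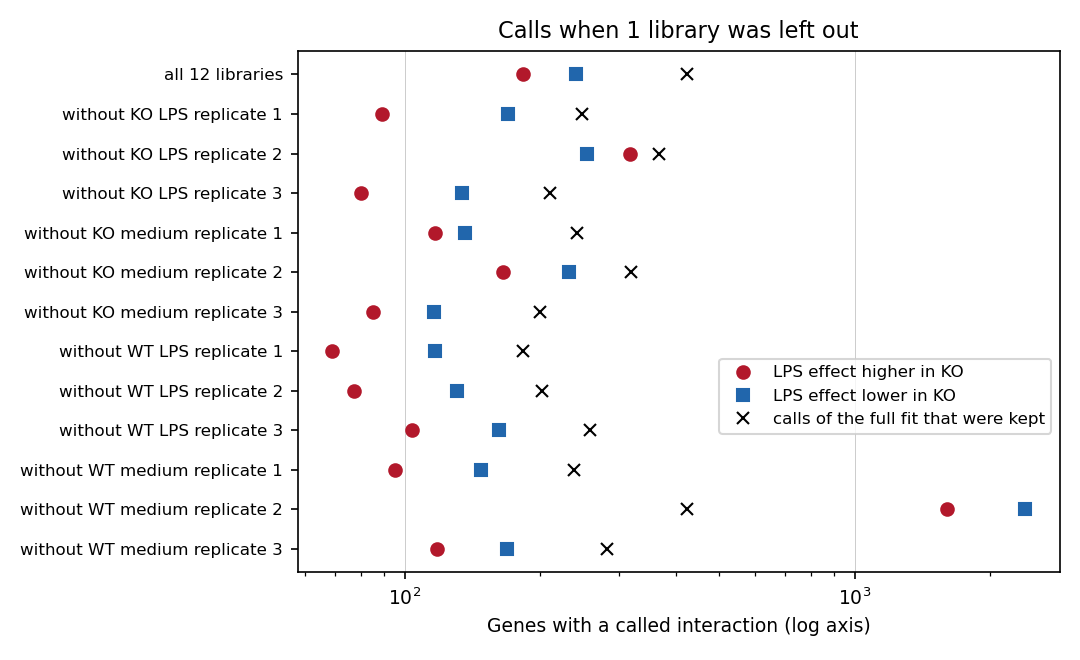
Points give the number of genes with a higher (red) and lower (blue) LPS effect in KO on a log axis, for the fit on all 12 libraries and for each fit without 1 library, and crosses the number of the 423 full-fit calls that were kept. The fit without WT medium replicate 2 stands apart at 1606 higher and 2391 lower genes.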

How the data were processed

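Per the labels' protocols, libraries were stranded total RNA depleted of ribosomal RNA. The authors deposited 1 table of raw counts per Ensembl gene for the 12 libraries, as whole numbers. Per the submitters' processing notes, FastQC 0.11.9, Trimmomatic 0.39, STAR 2.7.9a, featureCounts and DESeq2 1.32.0 were used on GRCm39. The annotation release, strand setting and treatment of multiply mapped reads were not given in the sources used here, so overlapping genes and near-identical copies remain uncertain. Symbols of 52083 identifiers came from GENCODE on GRCm38, which served for names and transcript sequences only.

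Counts were filtered (filterByExpr by group, count minimum 10), scaled by TMM and fitted with edgeR 4.0.16 (R 4.3.3; quasi-likelihood, robust, 4 group means, no replicate block). Adjusted p-values are Benjamini-Hochberg values over all 26420 genes, called under 0.05, and effects are log2 ± SE. The biological coefficient of variation was 0.235. Shared sequence is the percent of a gene's 31-mers found in transcripts of other genes. Promoters came from RefSeq.

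The genes, lists and classes were chosen with earlier results of these data known. Genes named were 11 fixed genes, the 6 largest interactions per weaker or stronger class and the 4 largest per reversed direction (by the smaller of the effects in the 2 lines), among called protein-coding genes averaging at least 2 on the log2 CPM scale and having a regular symbol. The 2 largest called members and the most abundant member of each list were added, and genes nearest the threshold. Other called list members, and genes said to be so, were chosen after their values were seen. Most abundant members without a call are not all named, and some results are not reported here. Alternatives covered scaling, filters, DESeq2, limma voom, gene subsets, covariates, the block and each library left out.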

Additional observations from a re-analysis of the deposited data

Results flagged for a closer look

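The LPS effect differed between the lines by the interaction term for 32 genes picked out by the naming rule, and the values below are interactions (KO minus WT, log2). Among weaker inductions they were -3.97 for Cish, -3.22 for Gbp5, -3.10 for Tmem171, -3.02 for Ifih1, -2.98 for Hdc and -2.90 for Isg20. Among weaker repressions they were 1.79 for Gcnt1, 1.42 for Fam78a, 1.20 for Cbx2, 1.19 for Tmem158, 1.17 for Agfg2 and 1.12 for Etv5. Among stronger inductions they were 3.55 for Acod1, 2.72 for Rtp4, 2.58 for Nos2, 2.56 for Treml4, 2.45 for P2rx1 and 2.34 for Adam8. Among stronger repressions they were -1.68 for Tlr13, -1.34 for Gtf2ird1, -1.26 for Plekha5, -1.23 for Rell1, -1.15 for Cysltr1 and -1.12 for Slc29a3. Among reversed responses they were -3.44 for Slfn4, -2.01 for Cd38, -1.86 for Rbm43, -1.73 for Rab30, 2.52 for Bcl6, 2.01 for Mical2, 0.97 for Dmwd and 0.82 for Ldlrad3. Gtf2ird1 lost its call in 9 of the 12 fits that left out 1 library (adjusted p up to 0.136); its KO level was 9.38-fold lower in medium and 23.7-fold lower under LPS.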

How the results depend on the processing

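Genes called in the interaction numbered 183 higher and 240 lower, with 203 weaker, 159 stronger and 61 reversed responses. DESeq2 gave 445 higher, 413 lower, 376 weaker and 417 stronger. Library size alone gave 360 higher, 236 lower and 242 stronger, so the share of higher calls was 60.4% instead of 43.3%, and the median over all genes moved to 0.06. Protein-coding genes alone gave 396 lower, 311 weaker and 284 stronger. With the processed-pseudogene share as a covariate there were 74 higher, 125 lower, 117 weaker, 67 stronger and 2 reversed. An adjusted p under 0.01 gave 47 higher, 84 lower, 72 weaker, 43 stronger and 16 reversed. Leaving out WT medium replicate 2 and KO LPS replicate 2 together, chosen after seeing the data, gave 1350 higher, 1354 lower, 460 weaker and 2138 stronger. Leaving out each library in turn gave 69 to 1606 higher, 116 to 2391 lower, 96 to 516 weaker, 68 to 3330 stronger and 22 to 97 reversed. Limma voom, RLE scaling, no filter, a count minimum of 30, robust estimation off, the 50 most abundant genes left out and protein-coding genes with under 5% shared 31-mers (added after seeing the data) kept all 5 counts within 1.5 times. The causes were not tested.

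With the replicate number as a block the counts were 311 higher, 350 lower, 310 weaker, 268 stronger and 83 reversed. The numbers were not taken to pair the cultures, since same-numbered libraries of different groups had residual correlations from -0.37 to 0.39 (median 0.13), over 0.1 for 11 of 18.

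No called gene changed sign in any alternative in which it was tested. Of the named genes without a call, Ifnb1 ranged from -4.42 to 0.20 and Csf2ra from -0.26 to 0.013 when each library was left out, with the positive values without KO medium replicate 1 and WT LPS replicate 2, respectively. Depth limits the value of Ifnb1, which had at most 2 counts in any medium library.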
